A study of Mus musculus with 24 samples.

Results

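The axoneme is the microtubule core of a motile cilium, and the genes that build it are described here across 6 groups of mouse astrocyte and neural stem cell libraries. The members are the protein-coding genes whose Gencode symbol begins with Dnah, Dnai, Dnaaf, Dnal, Cfap, Rsph, Tekt, Drc, Spef or Spag followed by a digit. This rule used no expression value and found 82 of the 49671 genes in the deposited count table: 17 dynein arm genes, 4 dynein assembly factors, 8 radial spoke genes, 5 tektins, 3 genes of the nexin-dynein regulatory complex, 31 Cfap genes (cilia and flagella associated proteins) and 14 Spef and Spag genes (sperm flagellar and sperm associated antigens). A name is not a function, and some Spag and Cfap genes act outside cilia. Of the 82 members, 78 passed the filter on low counts and were tested. Spag11a, Spag11b and Cfap97d1 had at most 3 counts in every library, and Rsph6a, a radial spoke head gene of sperm, reached at most 9 counts.

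The study set astrocytes generated from embryonic stem cells (AGES) beside primary astrocytes, freshly isolated or cultured, by stranded mRNA sequencing of 24 bulk libraries with 4 libraries per group. NSC are neural stem cells at passages 50 to 60, grown on gelatin in N2B27 medium with the growth factors FGF and EGF at 20 ng/ml each. AGES are those cells after 3 to 5 days on poly-ornithine and laminin in N2B27 medium with 20 ng/ml BMP4, a growth factor that drives astrocyte differentiation, in place of FGF and EGF. BMP4, the loss of FGF and EGF and the new coating therefore cannot be told apart in AGES against NSC. All NSC and AGES libraries go back to the 1 embryonic stem cell line GSC-5003, which was derived from C57BL/6N mice. The neoAC groups are astrocytes of C57BL/6J mice aged 4 to 8 days, and the AdAC groups are astrocytes of C57BL/6J mice aged 100 to 140 days, both captured with magnetic beads against ACSA-2, an astrocyte surface antigen. Each isolation pooled 2 mice, and both sexes were used. Pellets frozen straight after capture form neoAC direct and AdAC direct, and cells kept for 7 to 10 days in AstroMACS medium on poly-lysine and laminin form neoAC CellC and AdAC CellC. Days since capture, medium, coating and the survival of cells therefore cannot be told apart in the culture effect at either age. Neonatal tissue was cerebral tissue without meninges, whereas adult tissue was brain, dissociated with another kit and cleared of debris and red cells, so dissection and dissociation cannot be told apart from age. The methods state that olfactory bulb and cerebellum were taken off for AdAC direct and do not say so of AdAC CellC, so a difference in dissection between these 2 groups was not tested.

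A motile cilium bends because dynein motors, mounted as outer and inner arms on each microtubule doublet, slide one doublet against its neighbour. Assembly factors fold and preassemble the arms in the cytoplasm, radial spokes and the nexin-dynein regulatory complex pass signals between the central microtubules and the arms, and tektins are filaments that stiffen the doublet wall. In the brain, tufts of motile cilia are known from ependymal cells, which line the ventricles, and from choroid plexus, while most astrocytes and neural stem cells carry a single primary cilium that lacks dynein arms and spokes.

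Libraries held 27904126 to 37997368 counts, and levels are given as CPM (counts scaled to the library size with the TMM factors of edgeR). The floor was taken as 3 counts in a library. The markers of astrocytes summed to 13860 to 14350 CPM in AdAC direct, 19470 to 22260 in neoAC direct, 6323 to 7390 in neoAC CellC and 54270 to 58920 in AGES, but to only 820.9 to 1276 in AdAC CellC, below the 1907 to 2426 of NSC. Markers of oligodendrocytes summed to 25590 to 28410 CPM in AdAC direct and 4090 to 10430 in AdAC CellC, against at most 393.9 in any other library. Neural stem cell markers summed to 767.1 to 789.4 CPM in AdAC direct and to 5088 or more in all other libraries. Sums for choroid plexus markers spanned 114.1 to 1381 CPM across the primary libraries, those for neurons 29.44 to 182.3, for oligodendrocyte precursors 238.8 to 1119, for microglia 4.572 to 54.83 and for endothelium 3.657 to 239.3. The highest microglial and endothelial sums came from neoAC direct replicate 2. The part of these other cells in the results below was not tested, except where values are given. In bulk samples fewer cells of a type and less RNA per cell cannot be told apart.

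The tested members were divided by level into 13 with a mean of at least 10 CPM in every group and 65 others. Most of the 65, but not all, were nearly silent in the stem cell line. Among the exceptions were Dnaaf2, at 34.41 CPM in NSC, and Cfap300, at 11.09 CPM in NSC and 18.02 in AGES. Summed over the 65 tested members that did not reach a mean of 10 CPM in every group, libraries of NSC held 76.39 to 86.82 CPM and libraries of AGES 99.93 to 122.4 CPM. The same 65 members summed to 541.8 to 858.6 CPM in neoAC direct, 667.1 to 953.7 in AdAC CellC, 2921 to 3655 in neoAC CellC and 5291 to 5761 in AdAC direct. The other 13 members, among them Spag9, Spag7, Cfap36, Cfap298, Dnal1 and Dnal4, summed to between 708.9 and 1534 CPM in every library. By mean level, 52 of the 78 tested members were highest in AdAC direct, 18 in neoAC CellC, 4 in NSC, 2 in neoAC direct, 1 in AGES and 1 in AdAC CellC. In NSC 57 tested members had a mean under 1 CPM and in AGES 49, of which 48 were under it in both.

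**Figure D1:**
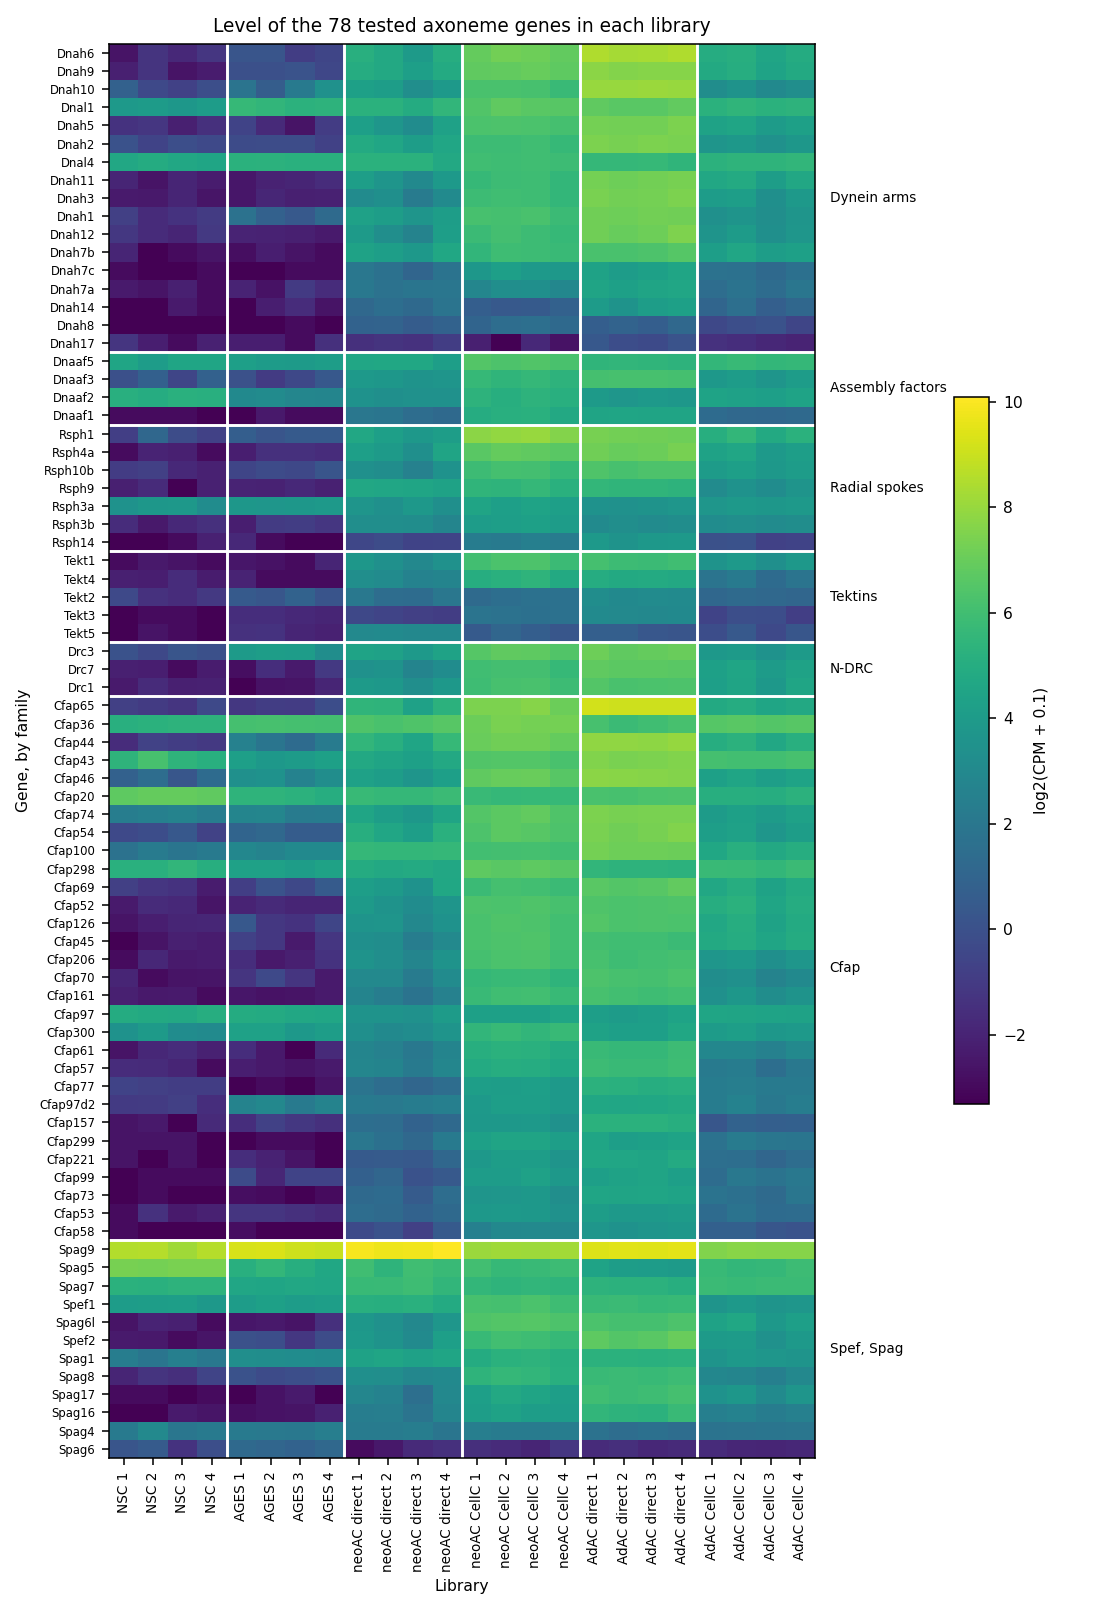
Level of the 78 tested members in each of the 24 libraries, as log2(CPM + 0.1) in color, with genes as rows ordered by family and libraries as columns (N-DRC, nexin-dynein regulatory complex). Most rows are dark in NSC and AGES and brightest in AdAC direct and neoAC CellC, while a few rows, such as Spag9 and Cfap36, are bright in every column.

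Promoter sequence is shown for 5 members that carry the letters bound by RFX factors, which switch on cilium genes, and whose levels differ across the groups. They are a Cfap gene, a dynein arm gene, a gene of the nexin-dynein regulatory complex and a pair of tektins, and no assembly factor, radial spoke, Spef or Spag gene is among them. RefSeq promoters (GRCm38.p6, windows of 300 bases around a start site) were at hand for 67 of the 82 members. The RFX motif, GTTGCC on either strand, stood in a promoter of 26 of these 67 (38.8%), against 15.2% of 12067 tested protein-coding genes and 14.1% of all 27025 genes with a promoter of the same length. It was found in 2 of 3 assembly factors, 3 of 5 tektins, 5 of 11 Spef and Spag genes, 10 of 24 Cfap genes, 1 of 3 genes of the nexin-dynein regulatory complex, 4 of 16 dynein arm genes and 1 of 5 radial spoke genes. The palindromic X-box, GTTNCC and GGNAAC set 1 to 3 letters apart, was found in 1 member (1.49%) and in 0.994% of tested protein-coding genes. That member is Cfap298, whose promoter holds it at 2 places, and each X-box there overlaps RFX motifs on both strands. The forkhead letters GTAAACA were found in 4 members (5.97%; Cfap20, Cfap43, Dnah17 and Tekt3) and in 3.22% of tested protein-coding genes. Genes can have several start sites, a match of letters is no evidence of binding, and no factor binding was measured. In the lines that follow, sequences run 5′ to 3′ on the strand of the gene and capitals mark the X-box or RFX motif.
Cfap298, chr16:90934800-90935099, minus strand: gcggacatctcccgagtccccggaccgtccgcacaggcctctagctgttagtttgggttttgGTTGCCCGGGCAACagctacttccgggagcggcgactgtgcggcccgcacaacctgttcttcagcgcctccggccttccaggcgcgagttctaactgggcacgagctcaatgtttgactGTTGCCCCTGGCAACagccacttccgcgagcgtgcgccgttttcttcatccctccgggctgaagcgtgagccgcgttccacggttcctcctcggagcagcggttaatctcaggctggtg
Tekt1, chr11:72361833-72362132, minus strand: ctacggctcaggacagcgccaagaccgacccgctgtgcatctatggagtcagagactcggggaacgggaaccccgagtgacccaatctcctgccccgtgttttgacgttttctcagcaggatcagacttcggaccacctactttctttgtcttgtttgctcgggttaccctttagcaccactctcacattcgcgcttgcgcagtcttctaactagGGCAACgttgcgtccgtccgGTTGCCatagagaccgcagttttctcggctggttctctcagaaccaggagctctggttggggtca
Tekt2, chr4:126325597-126325896, minus strand: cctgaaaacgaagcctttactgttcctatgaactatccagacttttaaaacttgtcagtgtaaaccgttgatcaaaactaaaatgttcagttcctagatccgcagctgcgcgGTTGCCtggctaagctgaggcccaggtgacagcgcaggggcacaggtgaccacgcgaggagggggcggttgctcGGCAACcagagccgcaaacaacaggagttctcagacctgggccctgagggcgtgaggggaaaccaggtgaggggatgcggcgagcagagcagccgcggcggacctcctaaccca
Dnah10, chr5:124724835-124725134, plus strand: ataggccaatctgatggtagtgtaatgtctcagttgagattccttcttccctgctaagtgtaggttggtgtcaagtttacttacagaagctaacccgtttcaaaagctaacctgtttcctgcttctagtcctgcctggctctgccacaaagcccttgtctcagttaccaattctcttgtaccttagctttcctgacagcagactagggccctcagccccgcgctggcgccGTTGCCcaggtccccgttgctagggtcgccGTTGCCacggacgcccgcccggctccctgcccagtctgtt
Drc1, chr5:30281143-30281442, plus strand: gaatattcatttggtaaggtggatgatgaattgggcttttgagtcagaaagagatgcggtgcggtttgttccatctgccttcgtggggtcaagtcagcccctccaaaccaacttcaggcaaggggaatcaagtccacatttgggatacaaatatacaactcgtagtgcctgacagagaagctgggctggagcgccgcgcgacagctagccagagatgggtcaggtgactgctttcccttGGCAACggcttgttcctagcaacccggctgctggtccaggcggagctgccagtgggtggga

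In the promoters printed above, the RFX motifs lay 35 and 15 bases before the start site of Tekt1, 138 and 64 before that of Tekt2, 11 before that of Drc1, and 20 before and 10 after that of Dnah10. Another RefSeq promoter of Tekt2 places the same motifs 96 and 22 bases before its start site. These 5 genes did not share one pattern of expression, as the values below show: Tekt1, Drc1 and Dnah10 were nearly silent in NSC, Tekt2 was low in all groups, and Cfap298 was expressed in all of them.

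Culture of adult astrocytes was accompanied by lower levels of nearly every axoneme family. In AdAC CellC against AdAC direct, 65 of the 82 members were lower and 6 higher, 7 were not called and 4 not tested, at an adjusted p under 0.05 from the quasi-likelihood test of edgeR over all 19691 genes tested. Of all genes tested, 39.2% were lower and 38.8% higher. The median log2 fold change of the 78 tested members was -2.42, beside 0 over all genes. The dynein arms had 16 of 17 members lower (median log2 fold change -2.87), the Cfap genes 27 of 31 (-2.54), the nexin-dynein regulatory complex 3 of 3 (-2.41), the tektins 4 of 5 (-2.28), the radial spokes 5 of 8 (-2.09), the Spef and Spag genes 8 of 14 (-1.88) and the assembly factors 2 of 4 (-1.03). The 6 members that rose were Spag5, a protein of the mitotic spindle (1.51 ± 0.14, log2 fold change ± SE), Spag7 (0.54 ± 0.08), the assembly factor Dnaaf2 (0.53 ± 0.09), Cfap36 (0.53 ± 0.09), Cfap298 (0.33 ± 0.09) and Cfap97 (0.26 ± 0.11, adjusted p = 0.0385). Summed ependymal markers, which include Foxj1, were lower as well, at 254.4 to 362.7 CPM in AdAC CellC against 1308 to 1514 in AdAC direct. The Cfap97 call was lost under 9 of the alternative settings, among them leaving out AdAC CellC replicate 1 or 2 or AdAC direct replicate 1, 2 or 3.

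In neonatal astrocytes culture went with higher levels. In neoAC CellC against neoAC direct, 67 of the 82 members were higher and 5 lower, 6 were not called, and the median log2 fold change was 2.14, beside 0.04 over all genes. Among all genes, 34.4% were higher and 31.3% lower. All 4 assembly factors rose (median log2 fold change 1.81), as did all 3 genes of the nexin-dynein regulatory complex (2.36), 7 of 8 radial spoke genes, 29 of 31 Cfap genes (2.51), 14 of 17 dynein arm genes (1.99), 3 of 5 tektins (2.16) and 7 of 14 Spef and Spag genes (0.90). Summed ependymal markers rose alongside, from 149.0 to 218.9 CPM in neoAC direct to 1488 to 1894 in neoAC CellC. The 5 members that fell were Tekt5, Dnah17, Spag9, Dnah14 and Spag7, the last by a log2 fold change of -0.27 ± 0.08 that lost its call when libraries were scaled by total counts only. That scaling moved the median of all genes to 0.27 and the calls over all genes from 6766 higher and 6170 lower to 8625 higher and 4468 lower, while the members' counts stayed within 1.5 times.

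The difference between the adult and the neonatal culture effect was itself tested as an interaction term. For 71 of the 82 members the adult effect was lower than the neonatal effect, with a median difference of -4.86 log2 units over the 78 tested members, beside 0.05 over all genes. Of all genes tested, 33.2% had a lower and 35.4% a higher adult effect. The difference was -7.21 ± 0.42 for Rsph14, -7.12 ± 0.28 for Cfap157, -6.90 ± 0.48 for Dnah10 and -6.68 ± 0.22 for Dnaaf1. Only Tekt5 (1.93 ± 0.35), Spag5 (1.47 ± 0.19) and Spag7 (0.81 ± 0.11) differed the other way, and Dnah17, Spag4, Spag6 and Spag9 were not called.

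**Figure D2:**
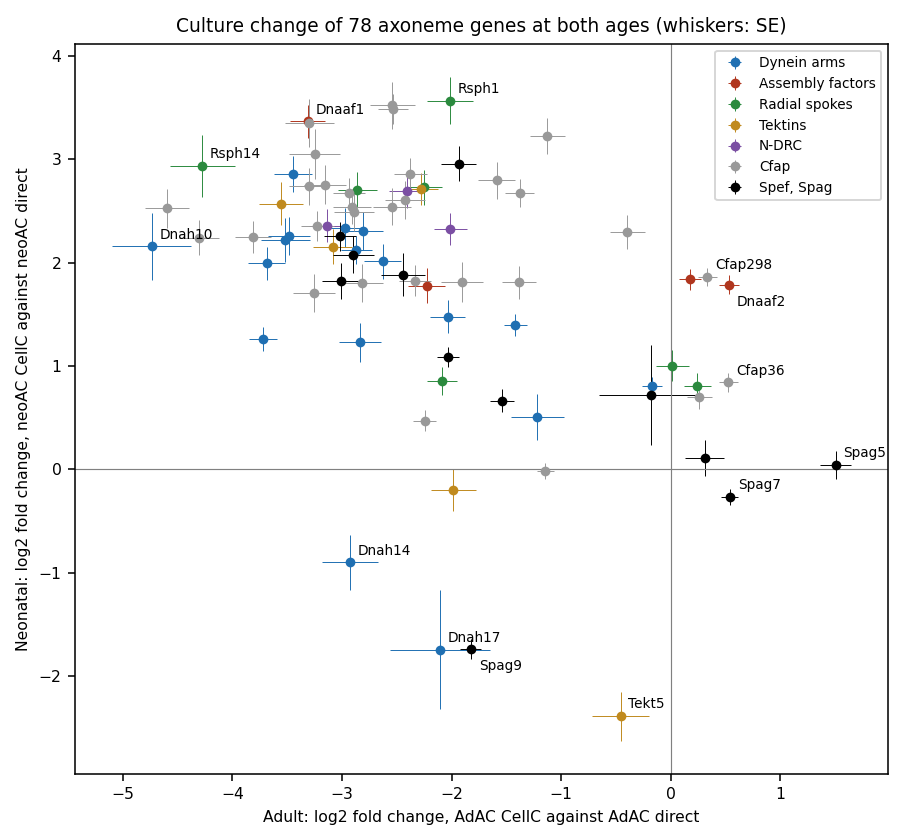
Log2 fold change with culture in adult astrocytes on the x axis and in neonatal astrocytes on the y axis, with 1 point for each of the 78 tested members, whiskers for the SE and color for the family (N-DRC, nexin-dynein regulatory complex). Most points lie left of 0 and above 0, while Tekt5, Dnah14, Dnah17 and Spag9 lie left of 0 and below 0.

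The heavy chains of the dynein arms, very large motor proteins, had the widest changes with adult culture. Dnah5 (chr15:28203752-28472052, plus strand, GRCm38), the heavy chain of the outer arm, measured 155.9, 148.3, 150.4 and 172.6 CPM in the 4 AdAC direct libraries and 20.83, 23.05, 16.30 and 19.66 CPM in AdAC CellC. It measured 18.68, 12.93, 9.067 and 20.35 CPM in neoAC direct and 76.72, 82.06, 78.74 and 71.02 CPM in neoAC CellC. The groups did not overlap within either pair, and the neonatal and adult changes ran in opposite directions. The log2 fold change was -2.97 ± 0.19 in adult cells (adjusted p = 8.12e-13) and 2.34 ± 0.19 in neonatal cells (adjusted p = 1.2e-10). In the stem cell line all 8 libraries lay at 0.546 CPM or below, with 0.2933, 0.3338, 0.1273 and 0.2674 CPM in NSC and 0.546, 0.2029, 0.06406 and 0.4277 CPM in AGES. Dnah9, the second outer arm motor of brain and airway cilia, followed the same order, at 202.6 ± 8.71 CPM (SD, n = 4) in AdAC direct, 115.7 ± 6.56 in neoAC CellC, 27.76 ± 4.43 in AdAC CellC and 26.53 ± 5.60 in neoAC direct.

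Among inner arm motors Dnah10 (chr5:124725085-124834308, plus strand) had the widest fall of all members with adult culture. Its 4 AdAC direct libraries held 257.5, 258.5, 263.4 and 262.0 CPM and its AdAC CellC libraries 9.328, 11.63, 8.231 and 9.863 CPM, a log2 fold change of -4.74 ± 0.36 (adjusted p = 7.9e-11). In neonatal cells it rose from 19.20, 17.27, 9.882 and 15.10 CPM to 75.07, 74.28, 72.17 and 53.21 CPM, a log2 fold change of 2.16 ± 0.33 (adjusted p = 5.26e-06). The highest neonatal culture library thus stayed far below the lowest adult direct library. Dnah10 was also detected in the stem cell line, at 1.694, 0.6676, 0.5092 and 0.8357 CPM in NSC and 3.471, 1.450, 4.324 and 10.79 CPM in AGES. Of the AGES libraries only replicate 4, at 10.79 CPM, lay in the range of AdAC CellC. Dnah10, like all 9 inner arm heavy chains, was called lower in AGES than in AdAC CellC.

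All 9 inner arm heavy chains (Dnah1, Dnah2, Dnah3, Dnah6, Dnah7a, Dnah7b, Dnah7c, Dnah10 and Dnah12) fell with adult culture and rose with neonatal culture, with medians of -3.49 and 2.16. Of the 5 outer arm heavy chains (Dnah5, Dnah8, Dnah9, Dnah11 and Dnah17) all fell with adult culture (median -2.63) and 3 rose with neonatal culture (median 2.01). Dnah6 was the most abundant heavy chain per kilobase of exon in the 4 primary groups, at 25.4 CPM per kb in AdAC direct, 9.92 in neoAC CellC, 2.27 in AdAC CellC and 2.07 in neoAC direct. In the stem cell line Dnah10 was the most abundant, at 0.0576 CPM per kb in NSC and 0.311 in AGES. The log2 fold change of Dnah6 was -3.49 ± 0.19 with adult culture and 2.26 ± 0.18 with neonatal culture. Dnah3 had the largest neonatal rise of the family (2.86 ± 0.17), but it shares 1506 exon bases with Lyrm1 on the opposite strand, and the strand setting of the counting is not given in the sources used here. Reads shared by the near-identical Dnah7a, Dnah7b and Dnah7c may have been split among the copies or left uncounted, so their single levels are uncertain.

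A pair of dynein motors left the family's pattern. Dnah14, a heavy chain whose place in the axoneme is not well known, measured 16.49, 11.58, 17.73 and 19.60 CPM in AdAC direct and 1.994, 2.885, 1.593 and 2.140 in AdAC CellC. In neonatal cells it did not rise but fell, from 2.177, 2.768, 2.309 and 3.425 CPM to 1.528, 1.257, 1.274 and 1.662 CPM (log2 fold change -0.90 ± 0.27, adjusted p = 0.00468). Dnah14 was thus high in AdAC direct alone, with a log2 ratio of the neoAC CellC mean to the AdAC direct mean of -3.51. Dnah17, an outer arm motor known from sperm, stayed under 1 CPM on average in all groups, with the highest mean, 0.927 ± 0.218 CPM, in AdAC direct, and fell with culture at both ages. Exons of Lbr, Gm37664 and Gm23690 on the opposite strand overlap 907 exon bases of Dnah14. For Dnah17, 349 exon bases overlap Gm11738 and Pgs1 on the opposite strand. Reads from these genes may add to the low levels of both motors, which was not tested.

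The light chains of the arms are small and were expressed in every library. Dnal1 (chr12:84114366-84147498, plus strand), which binds the motor of the outer arm heavy chain, measured 110.8, 99.38, 99.72 and 117.2 CPM in AdAC direct and 37.53, 43.74, 38.31 and 40.17 CPM in AdAC CellC. It measured 38.31, 37.20, 29.78 and 44.36 CPM in neoAC direct and 87.76, 111.7, 99.71 and 95.37 CPM in neoAC CellC. AGES, at 49.92, 44.47, 38.76 and 40.50 CPM, overlapped AdAC CellC, whereas NSC lay lower, at 14.83, 16.05, 13.62 and 16.61 CPM. The difference between AGES and AdAC CellC was 0.12 ± 0.10 log2 units (adjusted p = 0.301), and that between AGES and NSC was 1.51 ± 0.11 (adjusted p = 3.83e-12). Dnal4 had the highest level per kilobase of the family when averaged over all libraries, between 11.1 CPM per kb in NSC and 25.5 in neoAC CellC, and was the one dynein arm gene not called with adult culture (-0.17 ± 0.09, adjusted p = 0.088).

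**Figure D3:**
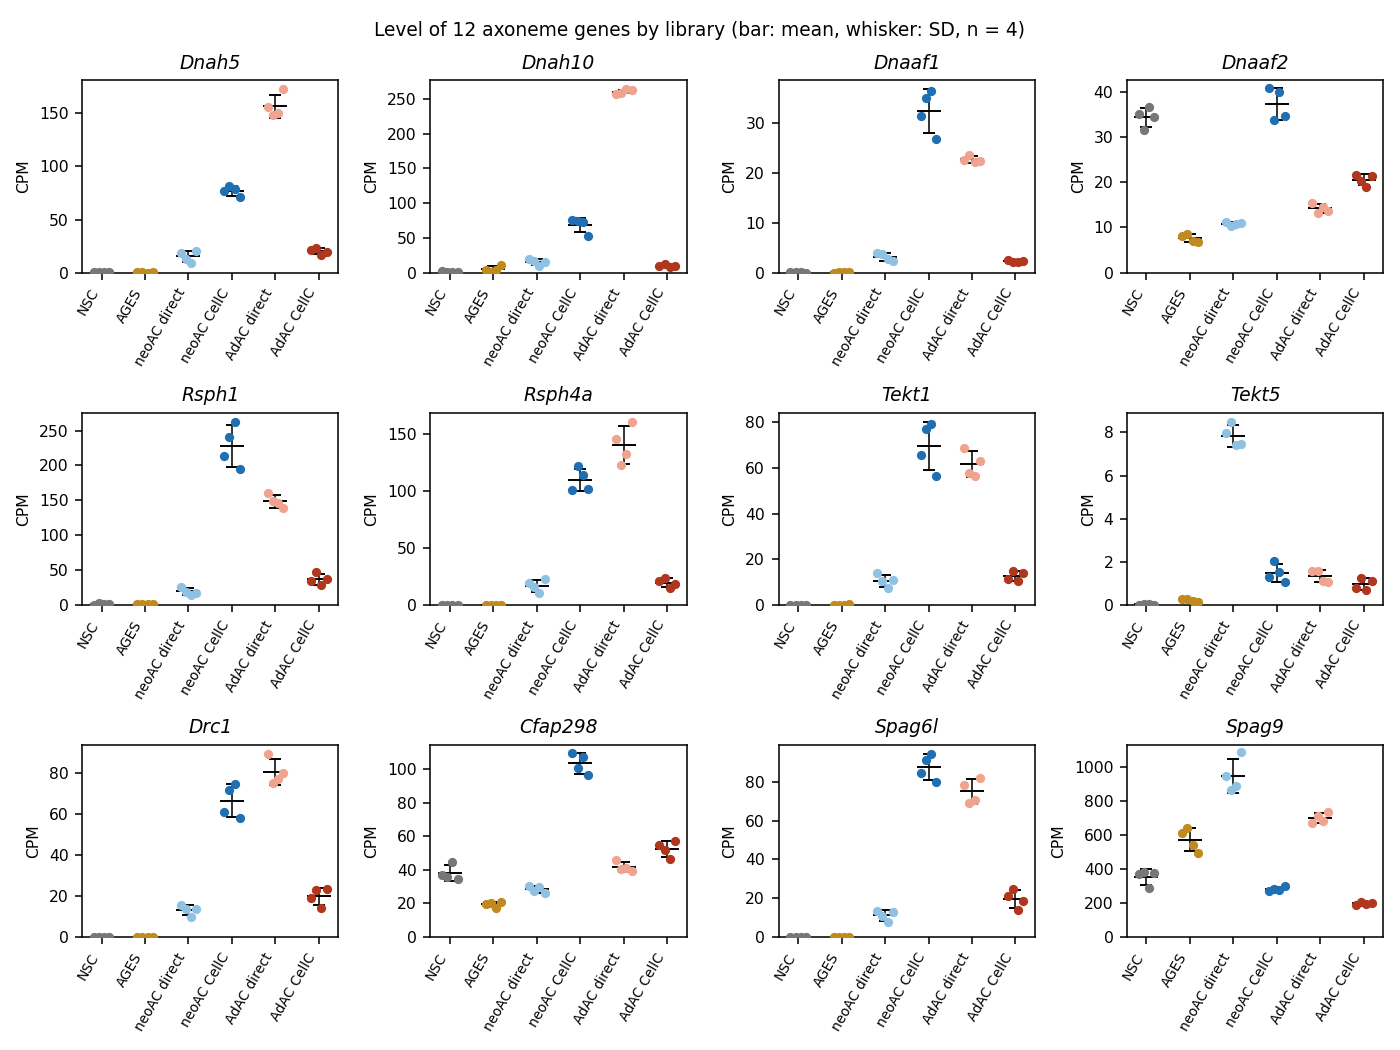
CPM on a linear axis in each of the 24 libraries for 12 members, with 1 dot per library, a bar at the group mean and whiskers for the SD (n = 4). For Dnah5, Rsph4a and Tekt1 the 8 stem cell line libraries lie under 1 CPM and the AdAC direct and neoAC CellC libraries lie highest, while Spag9 stays between 187.2 and 1083 CPM in every library.

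Assembly factors split into genes with and without expression in the stem cell line. Dnaaf1 (chr8:119575235-119598454, plus strand), required to preassemble dynein arms, measured 22.74, 23.75, 22.28 and 22.44 CPM in AdAC direct and 2.516, 2.214, 2.124 and 2.326 CPM in AdAC CellC. It rose from 3.899, 3.654, 2.683 and 2.328 CPM in neoAC direct to 31.53, 35.20, 36.49 and 26.81 CPM in neoAC CellC. The fall with adult culture (-3.31 ± 0.16, adjusted p = 1.18e-15) and the rise with neonatal culture (3.37 ± 0.16, adjusted p = 2.05e-15) were of similar size, and neoAC CellC ended above AdAC direct in every library. In NSC and AGES no library exceeded 3 counts of Dnaaf1, so against the floor it was at least 326-fold lower in AGES than in neoAC CellC and at least 23.0-fold lower than in AdAC CellC. Of its exon bases, 584 overlap Taf1c on the opposite strand.

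Dnaaf2 (chr12:69189087-69198429, minus strand), a co-chaperone of dynein folding, was instead as high in NSC as in cultured neonatal cells. Its levels were 35.10, 31.56, 36.60 and 34.37 CPM in NSC, 8.189, 8.610, 6.918 and 6.876 in AGES, and 40.76, 33.74, 39.92 and 34.68 in neoAC CellC. They were 11.24, 10.24, 10.76 and 11.01 CPM in neoAC direct, 15.43, 13.09, 14.59 and 13.70 in AdAC direct and 21.63, 20.28, 18.90 and 21.43 in AdAC CellC. Dnaaf2 therefore rose with culture at both ages, by 1.79 ± 0.09 log2 units in neonatal and 0.53 ± 0.09 in adult cells, and was lower in AGES than in NSC (-2.17 ± 0.09, adjusted p = 1.72e-16). Exons of 9330151L19Rik on the opposite strand overlap 1107 of its exon bases. Dnaaf3 and Dnaaf5 rose with neonatal culture by similar amounts (1.78 ± 0.17 and 1.84 ± 0.11), but in adult cells Dnaaf3 fell (-2.23 ± 0.17) and Dnaaf5 was not called (0.18 ± 0.10, adjusted p = 0.115).

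Radial spoke head genes rose with neonatal culture by widely different amounts. Rsph1 (chr17:31255019-31277383, minus strand), a spoke head protein, measured 26.03, 19.15, 14.09 and 17.52 CPM in neoAC direct and 213.5, 241.2, 262.8 and 194.3 CPM in neoAC CellC, the largest rise of any member (3.57 ± 0.23, adjusted p = 3.28e-12). In adult cells it fell from 161.1, 148.3, 146.7 and 138.5 CPM to 33.97, 47.52, 28.57 and 37.28 CPM (-2.01 ± 0.21, adjusted p = 1.02e-08). Per kilobase Rsph1 reached 166 CPM per kb in neoAC CellC and 108 in AdAC direct. Its lowest neoAC CellC library thus lay above its highest AdAC direct library. Rsph4a, another spoke head protein, measured 145.4, 122.9, 132.1 and 160.9 CPM in AdAC direct, 20.93, 23.89, 14.50 and 18.02 in AdAC CellC, 19.11, 15.53, 10.22 and 22.44 in neoAC direct, and 101.3, 121.9, 113.8 and 101.6 in neoAC CellC. Neither NSC, at most 0.1517 CPM, nor AGES, at most 0.2609 CPM, came near these values. Rsph9, a spoke head protein as well, measured 26.32, 24.22, 23.26 and 20.95 CPM in neoAC direct and 44.07, 41.54, 48.82 and 36.90 in neoAC CellC. Its neonatal rise was among the smallest of the family (0.85 ± 0.13, adjusted p = 3.6e-06), although its adult fall (-2.09 ± 0.14) was close to that of Rsph1.

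The stalk gene copies Rsph3a and Rsph3b were not called with adult culture. Rsph3b, a copy of the stalk protein gene, measured 8.548, 9.790, 8.674 and 9.389 CPM in AdAC direct, 8.929, 9.907, 8.709 and 9.243 in AdAC CellC and 9.780, 9.688, 9.474 and 6.650 in neoAC direct. These 3 groups overlapped, and the adult culture change was 0.01 ± 0.15 log2 units (adjusted p = 0.934). Only neoAC CellC lay higher, at 16.90, 18.02, 19.64 and 16.79 CPM (1.00 ± 0.15 against neoAC direct, adjusted p = 2.36e-06). In the stem cell line Rsph3b was under 0.5 CPM in every library. Its close copy Rsph3a, with which it may share reads, was by contrast expressed there, at 11.91 ± 2.26 CPM in NSC and 13.76 ± 0.920 in AGES. Rsph3a rose by 0.81 ± 0.12 with neonatal culture. Rsph14 rose by 2.93 ± 0.30 with neonatal culture and had the largest adult culture fall of the family (-4.28 ± 0.30) and the largest deficit of neoAC direct against AdAC direct of all members (-4.47 ± 0.30).

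The tektins did not move as one family. Tekt1 (chr11:72344722-72362442, minus strand) measured 68.88, 57.63, 56.50 and 63.05 CPM in AdAC direct, 11.54, 14.80, 10.25 and 14.11 in AdAC CellC, 13.81, 10.41, 7.471 and 10.81 in neoAC direct, and 65.59, 77.03, 79.32 and 56.37 in neoAC CellC. AdAC direct and neoAC CellC overlapped, while NSC and AGES held at most 5 counts in any library. The log2 fold changes were -2.28 ± 0.15 with adult culture (adjusted p = 6.35e-13) and 2.71 ± 0.15 with neonatal culture (adjusted p = 8.35e-14). Tekt4 and Tekt3 moved in the same directions as Tekt1, Tekt4 by -3.08 ± 0.18 and 2.16 ± 0.17, Tekt3 by -3.56 ± 0.20 and 2.57 ± 0.21.

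Tekt5 and Tekt2 did not follow Tekt1. Tekt5 (chr16:10357948-10395490, minus strand), known from sperm flagella, was highest in neoAC direct, at 7.961, 8.498, 7.437 and 7.448 CPM. It measured 1.310, 2.043, 1.524 and 1.080 CPM in neoAC CellC, 1.561, 1.575, 1.129 and 1.043 in AdAC direct, 0.7978, 1.253, 0.6903 and 1.117 in AdAC CellC and at most 0.2899 CPM in the stem cell line. Neonatal direct libraries thus stood above all 20 others, and the neonatal culture change was a fall of -2.39 ± 0.24 (adjusted p = 2.42e-09). Tekt2 was low throughout, with 9.258, 8.215, 8.822 and 8.459 CPM in AdAC direct, 2.148, 2.389, 2.204 and 2.016 in AdAC CellC, 3.964, 2.685, 2.547 and 3.924 in neoAC direct and 2.370, 2.803, 3.075 and 3.130 in neoAC CellC. It fell with adult culture (-1.99 ± 0.20) and was not called with neonatal culture (-0.20 ± 0.20, adjusted p = 0.394). Exons of Gm12945 on the opposite strand overlap 396 of its exon bases.

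Within the nexin-dynein regulatory complex, which links neighbouring doublets, Drc1 (chr5:30281388-30366695, plus strand) measured 89.06, 75.01, 76.76 and 79.65 CPM in AdAC direct and 19.12, 22.70, 14.15 and 23.48 in AdAC CellC. It measured 15.63, 13.87, 9.644 and 13.90 CPM in neoAC direct and 60.97, 71.59, 74.56 and 58.12 in neoAC CellC. Its highest value in the stem cell line was 0.2124 CPM. Drc3 (chr11:60353329-60394341, plus strand) was likewise highest in AdAC direct and then neoAC CellC, with the means of the lower pair of groups in the other order than for Drc1, at 126.0 ± 11.4 CPM in AdAC direct, 99.88 ± 11.4 in neoAC CellC, 19.49 ± 3.40 in neoAC direct and 14.31 ± 2.12 in AdAC CellC. Unlike Drc1 it was present in AGES, at 15.60, 17.51, 17.10 and 9.245 CPM against 0.945, 0.6373, 1.050 and 0.8692 in NSC (log2 fold change 4.08 ± 0.21, adjusted p = 9.89e-15). AGES and AdAC CellC overlapped for Drc3, with a difference of 0.06 ± 0.16 (adjusted p = 0.755).

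Cfap genes span doublet, spoke and central apparatus proteins. Cfap65 (chr1:74902071-74935599, minus strand), a central apparatus protein, had the highest level per kilobase of this set in AdAC direct, at 69.5 CPM per kb. Its AdAC direct libraries held 564.1, 541.7, 539.6 and 527.6 CPM, against 27.80, 31.24, 23.87 and 27.08 in AdAC CellC (-4.30 ± 0.19, adjusted p = 3.84e-16). In neonatal cells it rose from 43.83, 41.33, 20.20 and 38.97 CPM to 174.9, 175.1, 198.1 and 135.0 (2.24 ± 0.17, adjusted p = 3.6e-11), which left neoAC CellC below AdAC direct in every library. Cfap157 had the largest adult fall of the set (-4.60 ± 0.20), from 36.81 ± 1.78 to 1.51 ± 0.288 CPM. Cfap126, which lies along the inner doublet wall, measured 89.52, 78.35, 80.71 and 76.58 CPM in AdAC direct and 75.13, 84.32, 79.74 and 65.37 in neoAC CellC, which overlapped, and fell with adult culture less than most (-1.59 ± 0.17), to 26.42, 32.23, 20.66 and 28.78 CPM. In neoAC direct it measured 12.31, 12.65, 7.607 and 11.14 CPM.

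The microtubule inner proteins Cfap52, Cfap45 and Cfap53, the tether genes Cfap43 and Cfap44 and the spoke-linked genes Cfap61 and Cfap206 all fell with adult culture, by log2 changes of -1.13 (Cfap45) to -2.91 (Cfap61), and all rose with neonatal culture, by 1.80 (Cfap44) to 3.23 (Cfap45). Cfap99 had the largest neonatal rise of the set (3.52 ± 0.23), from 1.47 ± 0.471 to 17.00 ± 2.45 CPM.

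Cfap298 (chr16:90925809-90935114, minus strand), linked to dynein arm assembly and cilium polarity, is the member with the X-boxes printed above. It measured 45.72, 40.61, 41.17 and 39.05 CPM in AdAC direct and 54.62, 51.72, 46.20 and 57.13 in AdAC CellC, and 30.45, 27.62, 29.51 and 26.00 in neoAC direct against 109.7, 100.4, 106.9 and 96.23 in neoAC CellC. Culture thus went with higher levels at both ages, by 0.33 ± 0.09 (adjusted p = 0.00122) and 1.86 ± 0.09 log2 units (adjusted p = 3e-15). It was expressed in the stem cell line, at 36.92, 35.93, 44.75 and 34.33 CPM in NSC and 19.97, 20.15, 17.52 and 20.92 in AGES. Cfap20 and Cfap97 were likewise expressed in all groups, Cfap20 with its highest mean in NSC (114.5 ± 5.38 CPM) and Cfap97 within 12.66 to 29.71 CPM by group mean.

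The Spef and Spag genes held both axoneme and other proteins. Spag6l (chr16:16753016-16829456, minus strand), a central apparatus protein, measured 78.39, 68.90, 70.85 and 82.19 CPM in AdAC direct, 21.08, 24.94, 14.02 and 18.55 in AdAC CellC, 13.65, 10.88, 7.607 and 12.90 in neoAC direct, and 84.71, 91.47, 94.37 and 79.81 in neoAC CellC. NSC and AGES stayed at or under 0.2632 CPM. Its copy Spag6, with which it may share reads, showed a different order: 2.301, 2.029, 1.730 and 2.171 CPM in AGES, 1.043, 1.335, 0.2864 and 0.8357 in NSC, and at most 0.3324 CPM in every primary library. Spag6 was the one member with its highest mean in AGES. The other central apparatus genes, Spag16, Spag17, Spef1 and Spef2, fell with adult culture by -3.01 ± 0.18, -2.44 ± 0.20, -2.04 ± 0.10 and -2.90 ± 0.19, and rose with neonatal culture by 1.82 ± 0.17, 1.88 ± 0.21, 1.09 ± 0.10 and 2.08 ± 0.18.

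Spag9, a scaffold of kinase signalling and vesicle transport with no known place in the axoneme, was the most abundant of its family per kilobase in 4 groups, from 31.5 CPM per kb in NSC to 84.2 in neoAC direct, whereas Spag7 was so in neoAC CellC (29.8) and AdAC CellC (37.3). Spag9 measured 668.4, 711.5, 682.4 and 734.1 CPM in AdAC direct, 187.2, 208.0, 196.8 and 198.3 in AdAC CellC, 944.5, 861.4, 885.5 and 1083 in neoAC direct, and 269.4, 285.0, 276.8 and 300.4 in neoAC CellC. It fell with culture at both ages, by -1.82 ± 0.10 and -1.74 ± 0.10, and the 2 changes were not called different (interaction -0.09 ± 0.13, adjusted p = 0.583). In the stem cell line it measured 368.3, 381.3, 286.5 and 378.3 CPM in NSC and 611.6, 638.1, 540.7 and 493.0 in AGES. Spag5, the spindle protein, was highest in NSC (162.9 ± 4.46 CPM) and lowest in AdAC direct (18.03 ± 2.48), and Spag4, a nuclear envelope protein, lay at 2.86 to 5.04 CPM by group mean.

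**Figure D4:**
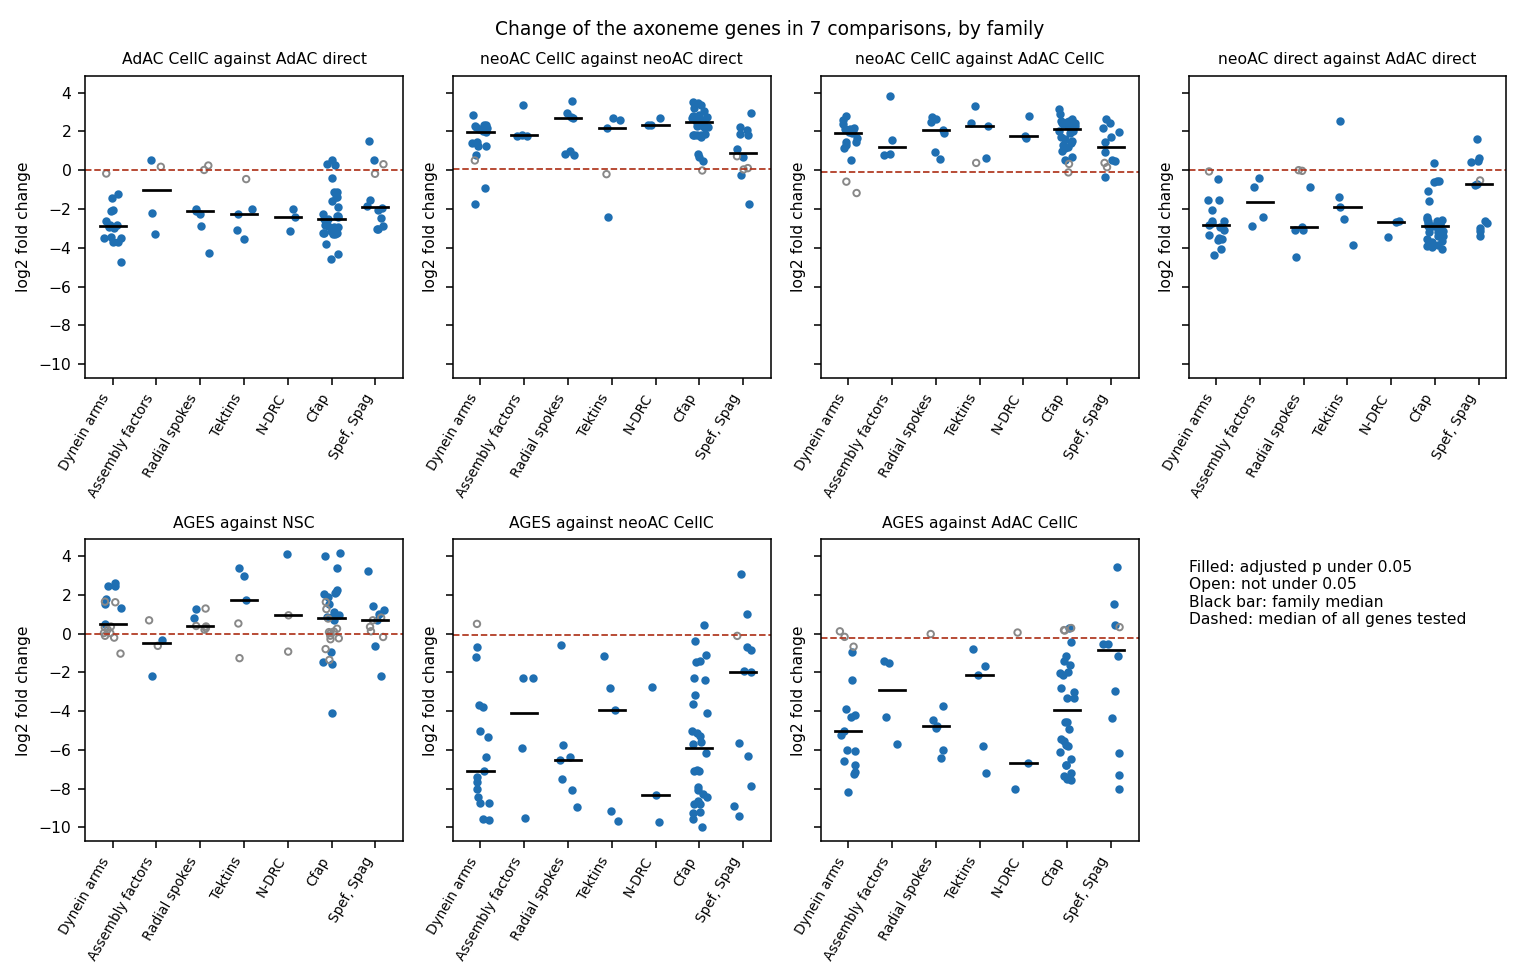
Log2 fold change of each tested member by family (N-DRC, nexin-dynein regulatory complex) in 7 comparisons, with filled points for an adjusted p under 0.05, open points for others, a black bar at the family median and a dashed line at the median of all genes tested. The medians of all 7 families lie below 0 with adult culture and above 0 with neonatal culture.

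Age in fresh cells was compared between the direct groups. In neoAC direct against AdAC direct, 68 of the 82 members were lower and 6 higher, 4 were not called, and the median log2 fold change was -2.72, beside 0 over all genes. Among all genes, 36.4% were lower and 35.0% higher. The family medians ran from -2.95 for radial spokes, -2.88 for Cfap genes and -2.83 for dynein arms to -0.73 for Spef and Spag genes, with the nexin-dynein regulatory complex at -2.69, the tektins at -1.91 and the assembly factors at -1.65. The 6 higher members were Tekt5 (2.56 ± 0.24), Spag5 (1.62 ± 0.14), Spag4 (0.65 ± 0.18), Spag7 (0.48 ± 0.08), Spag9 (0.43 ± 0.09) and Cfap36 (0.37 ± 0.09). Dnah3 (-4.36 ± 0.18), Cfap221 (-4.08 ± 0.24), Tekt3 (-3.88 ± 0.21) and Spag17 (-3.41 ± 0.21) had the largest deficits of their families among members of at least 1 CPM. Replicate 3 of neoAC direct was the lowest of its group for Dnah5, Dnah6, Dnah9, Dnah10, Rsph1, Rsph4a, Tekt1, Drc1 and Cfap65, and leaving it out kept both counts within 1.5 times.

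After culture the order of the ages was the reverse. In neoAC CellC against AdAC CellC, 70 of the 82 members were higher and 1, Spag7 (-0.33 ± 0.08), lower, 7 were not called, and the median log2 fold change was 1.92, beside -0.08 over all genes. Of all genes tested, 28.5% were higher and 35.2% lower. The tektins (median 2.26), Cfap genes (2.14), radial spokes (2.05), dynein arms (1.95) and nexin-dynein regulatory complex (1.74) stood above the assembly factors (1.22) and the Spef and Spag genes (1.18). Dnaaf1 (3.82 ± 0.16), Tekt4 (3.33 ± 0.18), Cfap157 (3.16 ± 0.20), Dnah10 (2.82 ± 0.34), Drc3 (2.80 ± 0.16), Rsph14 (2.74 ± 0.29) and Spag8 (2.66 ± 0.14) had the largest difference of their families. The count of lower members was 2 without neoAC CellC replicate 3 and 2 without AdAC CellC replicate 3.

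The 2 groups with the highest levels, AdAC direct and neoAC CellC, differed in their balance between families. Setting their libraries side by side without a model, 46 members lay lower in every neoAC CellC library than in any AdAC direct library, 14 lay higher in every one, and 18 overlapped. Among all genes, 36.2% lay lower and 34.5% higher in this way. Of the 17 dynein arm genes 13 lay lower and 1 higher, and of the 3 genes of the nexin-dynein regulatory complex 3 lay lower. Of the 4 assembly factors 3 lay higher and 1 lower. The 7 tested radial spoke genes divided into 3 higher, 3 lower and 1 overlapping, the 5 tektins into 2 lower and 3 overlapping, and the 30 tested Cfap genes into 3 higher, 19 lower and 8 overlapping. The median log2 ratio of means was -1.35 for the dynein arms, -0.63 for the Cfap genes and 0.73 for the assembly factors. Over the 78 tested members this ratio had a Spearman rho of -0.476 with exon length, beside -0.097 over 15582 protein-coding genes. Dynein heavy chains are among the longest members, but Cfap54, at 14645 exon bases, is longer than Dnah1, at 13043. The parts of transcript length and of the dynein family in this ratio were not tested. RNA quality by library was not given in the sources used here.

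Fewer members differed between AGES and NSC, where medium factors and coating changed together with BMP4. In AGES against NSC, 32 of the 82 members were higher and 8 lower, 38 were not called, and the median log2 fold change was 0.69, beside 0 over all genes. Of all genes tested, 31.7% were higher and 34.0% lower, so the share of members higher, 39.0%, was near that of all genes. The dynein arms had 7 members higher, the Cfap genes 14 higher and 4 lower, the Spef and Spag genes 5 higher and 2 lower, the tektins 3 higher, the radial spokes 2 higher, the nexin-dynein regulatory complex 1 higher and the assembly factors 2 lower. Cfap97d2 rose from 0.374 ± 0.102 to 6.14 ± 1.23 CPM (4.02 ± 0.20), Cfap44 from 0.389 to 4.11 (3.36 ± 0.33) and Dnah1 from 0.347 ± 0.122 to 2.13 ± 0.882 (2.59 ± 0.30). Tekt2 rose from 0.6843, 0.2731, 0.2228 and 0.3677 CPM to 1.287, 1.102, 1.730 and 1.020 (1.73 ± 0.27). For Cfap99, Spef2 and Tekt3, at or below the floor in NSC, AGES was at least 5.25-fold, 7.41-fold and 2.14-fold higher. Among members that fell were Cfap20 (-1.56 ± 0.08), Cfap43 (-1.47 ± 0.16), Cfap298 (-0.95 ± 0.09), Spag5 (-2.21 ± 0.14) and Cfap77, which was at least 4.81-fold lower.

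AGES stayed far below both cultures of primary astrocytes. Against neoAC CellC, 73 of the 82 members were lower in AGES and 3 higher, 2 were not called, with a median log2 fold change of -6.01, beside -0.07 over all genes. Among all genes, 40.5% were lower and 34.1% higher. The family medians were -8.33 for the nexin-dynein regulatory complex, -7.10 for dynein arms, -6.50 for radial spokes, -5.92 for Cfap genes, -4.09 for assembly factors, -3.94 for tektins and -1.96 for Spef and Spag genes. Drc1 (-9.74 ± 0.28), Tekt1 (-9.66 ± 0.27), Dnah7b (-9.62 ± 0.30), Spag6l (-9.43 ± 0.28) and Rsph4a (-8.93 ± 0.28) were near the edge of detection in AGES, so their folds rest on a few counts there. Cfap299, at the floor in AGES, was at least 208-fold lower. Spag6 (3.08 ± 0.37), Spag9 (1.01 ± 0.09) and Cfap97 (0.42 ± 0.11, not called with library size as the only scaling) were higher in AGES. The 2 groups also differ in medium, coating, mouse substrain and the source of the cells, which cannot be told apart from the cell type.

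Against AdAC CellC, 65 of the 82 members were lower in AGES and 4 higher, 9 were not called, with a median log2 fold change of -4.30, beside -0.23 over all genes. Of all genes tested, 45.2% were lower and 31.0% higher. The family medians ranged from -6.69 for the nexin-dynein regulatory complex and -5.04 for dynein arms to -2.15 for tektins and -0.85 for Spef and Spag genes. Members higher in AGES were Spag6 (3.46 ± 0.38), Spag9 (1.53 ± 0.10), Spef1 (0.46 ± 0.10) and Cfap97 (0.31 ± 0.11, lost without AGES replicate 1, at 0.25), and this count was 7 to 9 under 4 of the alternative settings. With library size as the only scaling, the calls over all genes moved from 6105 higher and 8897 lower to 4818 higher and 10274 lower here, and from 6710 higher and 7977 lower to 4506 higher and 9820 lower against neoAC CellC. The 2 comparisons share the AGES libraries and are not independent.

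Axoneme genes with other names changed in the same directions as most members. A list of 51 further genes, such as the intermediate chains Dnaic1 and Dnaic2, docking and ruler proteins, had 49 genes tested, of which 49 were lower with adult culture, 48 higher with neonatal culture and 48 lower in neoAC direct than in AdAC direct. In AGES 25 were higher and 6 lower than in NSC, and 48 were lower than in neoAC CellC. Among all genes, 39.2% were lower with adult culture, 34.4% higher with neonatal culture and 36.4% lower in neoAC direct than in AdAC direct. In AGES 31.7% of all genes were higher and 34.0% lower than in NSC, and 40.5% were lower than in neoAC CellC. Dnaic1, an outer arm intermediate chain, measured 81.30, 73.04, 70.58 and 70.27 CPM in AdAC direct and 9.696, 11.63, 9.133 and 10.27 in AdAC CellC, and 14.10, 16.44, 12.60 and 13.37 in neoAC direct against 35.52, 40.60, 46.02 and 34.38 in neoAC CellC. The groups did not overlap within either pair.

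Genes of primary cilia, which carry intraflagellar transport or signalling and no dynein arms, moved less. The 16 genes listed, among them Arl13b, Ift88 and Smo, summed to 992.9 to 1024 CPM in AdAC direct, 719.7 to 763.2 in AdAC CellC, 804.7 to 855.6 in neoAC direct, 1080 to 1167 in neoAC CellC, 693.3 to 710.7 in NSC and 887.5 to 969.5 in AGES. Of the 16, 11 were lower and 3 higher with adult culture (median log2 fold change -0.67), and 10 higher and 2 lower with neonatal culture (0.65). In AGES 13 were higher and 2 lower than in NSC (0.64), and 11 lower and 4 higher than in neoAC CellC (-0.86). Over all genes tested, 39.2% were lower and 38.8% higher with adult culture, and 34.4% higher and 31.3% lower with neonatal culture. In AGES 31.7% of all genes were higher and 34.0% lower than in NSC. Against neoAC CellC, 40.5% were lower and 34.1% higher.

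Regulators of multiciliated cells and markers of ependymal cells, both lists that hold Foxj1, were measured beside the members. The ependymal markers also share Dynlrb2 with the list of further axoneme genes, so these lists are not independent. The 10 regulators summed to 634.0 to 674.2 CPM in AdAC direct, 229.8 to 316.5 in AdAC CellC, 243.4 to 332.2 in neoAC direct, 1624 to 2021 in neoAC CellC, 74.15 to 81.95 in NSC and 157.8 to 193.1 in AGES. Foxj1, the forkhead regulator of motile cilia, fell with adult culture (-0.99 ± 0.15) and rose with neonatal culture (3.44 ± 0.16). Of the 10, 7 were lower and 1 higher with adult culture, and 9 were higher with neonatal culture. Over all genes tested, 39.2% were lower and 38.8% higher with adult culture, and 34.4% were higher with neonatal culture. The regulator higher with adult culture was Mcidas, which reached at most 8 counts in AdAC CellC and 2 in AdAC direct. The fresh cells of both ages divided the list, with 5 regulators lower in neoAC direct than in AdAC direct (Foxj1, Gmnc, Myb, Rfx2 and Trp73) and 4 higher (Mcidas, Cdc20b, Ccno and Deup1), all named after their values were seen. Ccno, which takes part in making centrioles in multiciliated cells, was higher in neoAC direct by 2.94 ± 0.19 log2 units and Deup1, a scaffold for those centrioles, by 0.68 ± 0.20, while Cdc20b measured 4.207 to 9.683 CPM in neoAC direct and at most 1 count in AdAC direct. In AGES 3 regulators were higher and 2 lower than in NSC, and 10 were lower than in neoAC CellC. Against AdAC CellC, 7 regulators were lower in AGES and 2 higher, Rfx2 (1.46 ± 0.11) and Rfx3 (1.33 ± 0.11). Of all genes, 45.2% were lower and 31.0% higher in that comparison. Among all genes, 36.4% were lower and 35.0% higher in neoAC direct than in AdAC direct. In AGES 31.7% of all genes were higher and 34.0% lower than in NSC, and 40.5% were lower than in neoAC CellC. The regulator counts against NSC were thus not above the shares of all genes. The 8 ependymal markers summed to 1308 to 1514 CPM in AdAC direct, 254.4 to 362.7 in AdAC CellC, 149.0 to 218.9 in neoAC direct, 1488 to 1894 in neoAC CellC, 20.06 to 27.69 in NSC and 99.33 to 136.4 in AGES. Of these 8, 8 were lower with adult culture, 8 higher with neonatal culture and 8 lower in neoAC direct than in AdAC direct. In AGES 4 were higher than in NSC and 7 lower than in neoAC CellC, while Calml4 was higher than in neoAC CellC (0.45 ± 0.16). The ependymal sums, like the sums of the 65 members, were highest in AdAC direct and neoAC CellC and lowest in NSC. The orders were not the same in detail. The 65 members summed to 5291 to 5761 CPM in AdAC direct and 2921 to 3655 in neoAC CellC, whereas the ependymal sums overlapped and reached higher in neoAC CellC. In AdAC CellC and neoAC direct the member sums overlapped (667.1 to 953.7 and 541.8 to 858.6 CPM), whereas the ependymal sums did not. The part of ependymal cells in the results was not tested.

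**Figure D5:**
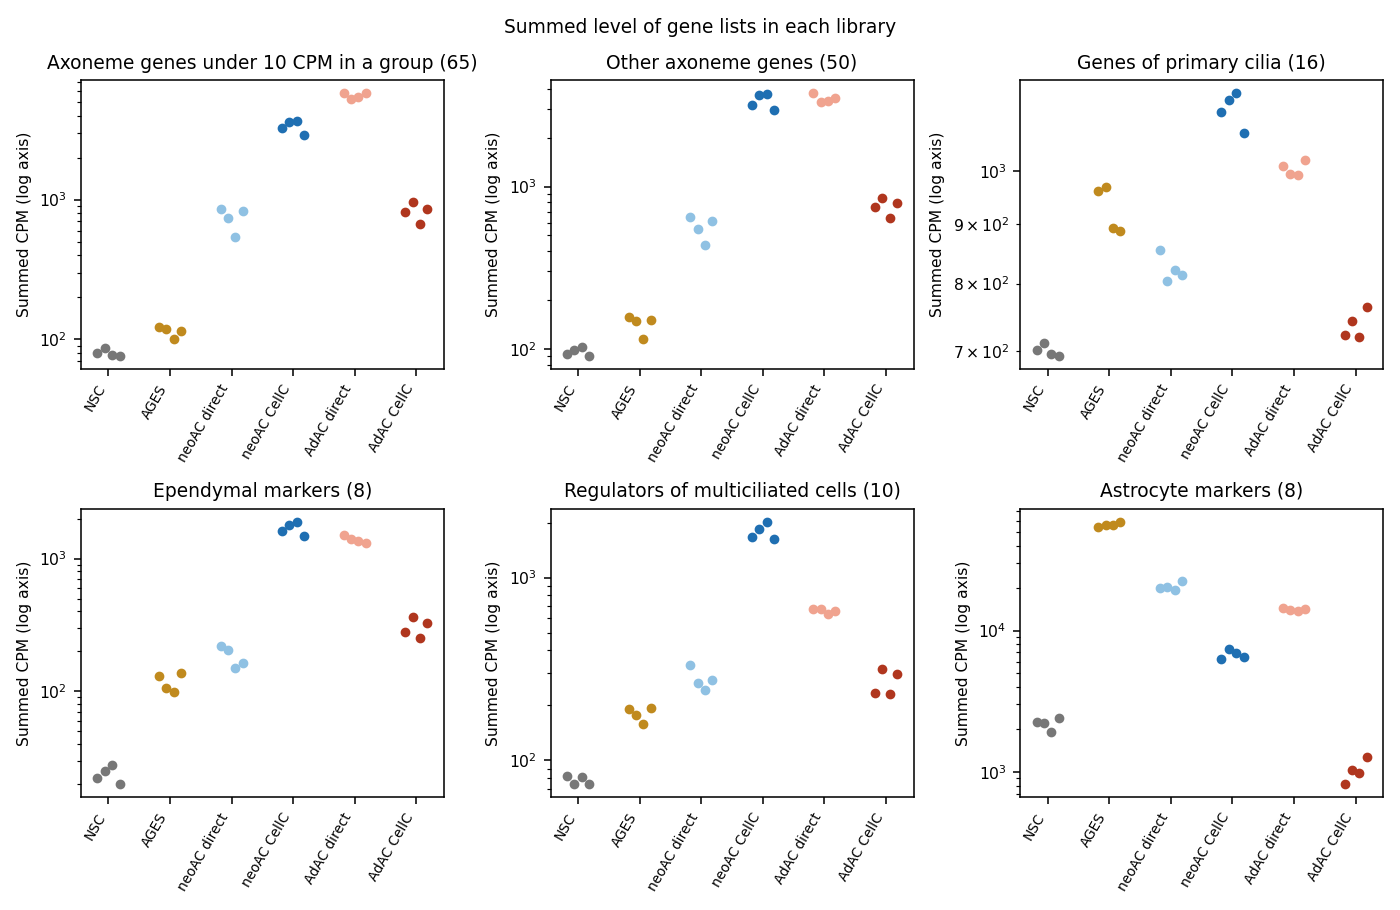
Summed CPM of 6 gene lists in each of the 24 libraries, on log axes that differ between panels, with 1 dot per library. The ependymal markers and both sets of axoneme genes are highest in AdAC direct and neoAC CellC, whereas the 16 primary cilium genes stay between 693.3 and 1167 CPM. Dynlrb2 is in both the ependymal markers and the other axoneme genes.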

How the data were processed

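Total RNA of 24 samples was sequenced from stranded, poly(A)-selected libraries. Per the labels and the study's methods, the authors aligned reads with STAR (2.7.3a) to GRCm38 and counted them per gene with featureCounts, and the deposited values are raw counts. Counts are not corrected for length. Multi-mapping reads were kept in the alignment, but the stated counting options do not say whether they were counted. The strand setting of the counting is not given in the sources used here.

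Ensembl identifiers were matched to Gencode vM21 (GRCm38), which found 49326 of 49671 (99.3%). Genes past filterByExpr (19691) were fitted in edgeR (4.0.16, R 4.3.3) with TMM scaling, 6 groups without a replicate term and the robust quasi-likelihood test, two-sided, with Benjamini-Hochberg adjustment over all genes and a threshold of 0.05. SEs are log2 fold changes divided by the square root of F. CPM values were counts scaled to library size with TMM, and levels between genes were compared only per kilobase of exon union. Folds against groups with at most 3 counts in every library are bounds computed with 3 counts in each such library. Replicates are separate isolations of primary cells or, for NSC and AGES, separate cultures of 1 line at different passages.

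Named genes were, in each family, the most abundant per kilobase, the called member with the largest change per comparison, where its mean reached 1 CPM in the higher group, up to 3 called members against the family's direction, and a list of known axoneme genes. Members and lists were chosen with earlier results of these data known. Genes whose other name matches the rule (4) entered only an alternative. Alternatives were DESeq2 (1.42.0), other scalings, filters and sample sets, a replicate term and leaving out each library.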

Additional observations from a re-analysis of the deposited data

Results flagged for a closer look

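Over 127 sets of 4 libraries, 1 set for each gene and group, 4 had 1 library apart from the other 3 by Dixon's criterion, and chance gives about 1 in 20 such sets. Dnah10 was lowest in neoAC CellC replicate 4, at 53.21 CPM. Rsph3b was lowest in neoAC direct replicate 4, at 6.65 CPM. Spag6l was highest in AGES replicate 4, at 0.2632 CPM, which rests on 8 counts. Spag9 was lowest in NSC replicate 3, at 286.5 CPM.

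The culture change differed between adult and neonatal astrocytes by the interaction test, with the adult change lower for 71 members and higher for 3, Tekt5, Spag5 and Spag7. No cause was tested.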

How the results depend on the processing

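Counts of members stayed within 1.5 times in 256 recomputations and moved further in 16, and no named gene reversed its direction. When genes needed 10 counts or more in each library, 26 members were tested, and fewer could be called for that reason: 17 lower with adult culture, 21 higher and 2 lower with neonatal culture, 23 higher in neoAC CellC than AdAC CellC, 20 lower in neoAC direct than AdAC direct, 13 higher in AGES than NSC, 23 and 16 lower in AGES than neoAC CellC and AdAC CellC, and 23 lower in the interaction. The single member lower in neoAC CellC than in AdAC CellC became 2 when members with another matching name were added, and ranged from 1 to 2 when 1 library was left out. Members higher in AGES than in AdAC CellC numbered 7 with no filter, 7 with DESeq2, 7 with the compared groups only and 9 with the replicate block. The cause was not tested. Replicate numbers did not pair the samples, with correlations of -0.095 to 0.106 between same-numbered libraries, and the replicate block moved no other count by over 1.5 times. Calls were lost for 13 gene results of Cfap97 and Spag7, and family medians moved by more than the spread in 59 recomputations and by less in 669. Near the floor of 3 counts in NSC and AGES, depth limits folds to bounds.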

Other observations

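Mcidas, which starts the multiciliated cell program, was at most 1 count in every NSC and AGES library and at most 2 counts in every AdAC direct library. It measured 2.519 to 5.426 CPM in neoAC direct and 32.78 to 44.66 CPM in neoAC CellC, a rise of 3.42 ± 0.21 log2 units, and reached at most 8 counts in AdAC CellC. AdAC direct, the group with the highest level of most axoneme genes, was thus at the floor for Mcidas. The intermediate chain Dnaic2 measured 106.9 ± 12.5 CPM (SD, n = 4) in neoAC CellC and 90.33 ± 5.08 CPM in AdAC direct, while Dnaic1 measured 39.13 ± 5.33 and 73.79 ± 5.15 CPM.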
